A study of Mus musculus with 18 samples.

Results

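The 10 genes described here encode transcription factors that drive oligodendrocyte progenitor cells (OPCs) toward myelin-forming oligodendrocytes: Olig1, Olig2, Sox10, Sox8, Nkx2-2, Nkx6-2, Myrf, Zfp488, Tcf7l2 and Zeb2. They were taken by symbol from a table of 38046 gene symbols, in which all 10 were found. RNA was sequenced in 18 libraries from mouse OPC lines, each line a single clone grown from primary neural stem cells. The control clones were D7, D3 and E8, and the Thap1 null clones were 3F, D6 and 7F, with 1 library per clone and stage and therefore 3 libraries per group. Both genotypes were sampled as OPCs in growth medium with PDGF-AA (day 0) and after 2 and 4 days in oligodendrocyte differentiation medium with the thyroid hormone T3 at 40 µg/ml (DIV2 and DIV4). No allele of Thap1 and no strain, sex or age of the source animals is given in the labels, and whether clones of 1 genotype came from separate animals is not stated. A p-value below therefore measures the spread between libraries of different clones, pooled over all groups. With 1 library per clone and stage, clone, culture and library spread cannot be told apart.

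The oligodendrocyte lineage is run by a small set of DNA-binding proteins that act in relay. OLIG1 and OLIG2 are basic helix-loop-helix factors, and SOX10 and SOX8 are HMG-box factors; OLIG2 and SOX10 mark the lineage from the progenitor onward. NKX2-2 and NKX6-2 are homeodomain factors, MYRF is a membrane-anchored factor that is cleaved and then switches on myelin genes, and ZFP488, TCF7L2 and ZEB2 are factors through which progenitors leave the undifferentiated state. THAP1 is a zinc-finger transcription factor in which mutations cause a human dystonia, and the study asked how its loss affects oligodendrocyte development.

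Olig1 and Olig2 lie close together on chromosome 16, at 91269772 to 91271933 and 91225457 to 91228677 of GRCm38, both on the plus strand. The other loci are Sox10 on chromosome 15, Sox8 on 17, Nkx6-2 on 7, Zfp488 on 14, Nkx2-2 and Zeb2 on 2, and Myrf and Tcf7l2 on 19. RefSeq promoter sequences (build GRCm38.p6, from 250 bases before to 50 bases after the start, given 5′ to 3′ on the gene's strand) matched 7 of the 10 genes; Olig1, Sox10 and Myrf were not matched. The promoters of the 4 matched genes whose RNA changed in at least 1 comparison below are shown so that their start regions can be set beside the values, with matches to any motif searched in capitals. They are chr16:91225300-91225599 (plus strand) for Olig2, chr17:25570637-25570936 (minus strand) for Sox8, chr14:33978715-33979014 (minus strand) for Zfp488 and chr19:55741560-55741859 (plus strand) for Tcf7l2.
Olig2: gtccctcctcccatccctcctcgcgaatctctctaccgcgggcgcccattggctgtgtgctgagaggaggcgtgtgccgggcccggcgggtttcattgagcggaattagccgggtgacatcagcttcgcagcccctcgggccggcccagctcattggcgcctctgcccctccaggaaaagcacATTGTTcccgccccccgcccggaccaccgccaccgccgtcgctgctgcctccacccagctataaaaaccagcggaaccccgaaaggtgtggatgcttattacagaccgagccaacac
Sox8: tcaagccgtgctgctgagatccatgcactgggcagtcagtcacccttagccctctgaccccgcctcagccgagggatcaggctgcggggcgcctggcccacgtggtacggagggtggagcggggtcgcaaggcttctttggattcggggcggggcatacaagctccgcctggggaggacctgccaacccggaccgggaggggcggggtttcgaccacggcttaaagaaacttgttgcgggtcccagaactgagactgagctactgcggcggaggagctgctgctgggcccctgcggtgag
Zfp488: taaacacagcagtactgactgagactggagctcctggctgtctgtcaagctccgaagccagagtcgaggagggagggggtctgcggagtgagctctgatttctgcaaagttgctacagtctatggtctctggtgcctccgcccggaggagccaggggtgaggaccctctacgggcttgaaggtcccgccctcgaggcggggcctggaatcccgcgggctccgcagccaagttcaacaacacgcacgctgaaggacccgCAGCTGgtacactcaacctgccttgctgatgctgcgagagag
Tcf7l2: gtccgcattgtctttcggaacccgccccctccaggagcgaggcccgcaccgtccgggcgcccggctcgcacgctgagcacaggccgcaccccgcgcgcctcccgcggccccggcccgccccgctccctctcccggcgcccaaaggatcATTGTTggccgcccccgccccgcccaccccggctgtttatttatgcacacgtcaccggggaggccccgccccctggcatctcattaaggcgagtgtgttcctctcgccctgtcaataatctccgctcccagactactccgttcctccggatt

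Both strands of each promoter were searched for 5 motifs: the E-box CAGCTG bound by helix-loop-helix factors, the SOX motif AACAAT, the thyroid hormone receptor half-site AGGTCA, the TCF/LEF motif CTTTGAT and the THAP1 motif TNNGGGCA. The motifs do not overlap in any match found here. Olig2 had 1 SOX match, on the reverse strand (ATTGTT, starting at -67 from the start site), and the upstream promoter of Tcf7l2 had 1 as well, starting at -102. SOX matches were present in 10.7% of all 32851 mouse promoters of the same length. Zfp488 had 1 E-box, starting at 9 bases after the start, and 16.3% of all promoters held one. None of the 11 promoters of the 7 genes held these letters for the TCF/LEF motif (3.73% of all promoters), the half-site (16.3%) or the THAP1 motif (13.9%). A match describes letters in this window only.

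Values are TPM, a measure of transcript abundance corrected for transcript length, summed over each gene's transcripts. In the control OPC libraries 3 noncoding features filled 64.8% to 88.0% of all TPM, against 34.8% in null D6 and at most 1.06% in null 3F and 7F at that stage and at most 3.17% at DIV2 and DIV4. Deposited TPM of all other genes are therefore low in control OPCs, and values here were rescaled in each library so that the median gene keeps its level (rescaled TPM). The correction was large: the factors were 0.125 to 0.317 in control OPCs and 0.723 to 2.01 elsewhere. Control D3 at the OPC stage stood apart, with 70.8 rescaled TPM summed over 12 cell cycle genes against 643 to 802 in the other 5 OPC libraries. Control D7 at DIV4 also stood apart, with 14191 rescaled TPM summed over 20 myelin genes against 3322 and 3042 in D3 and E8, and with the astrocyte marker Gfap at 0.176 against 102 and 238. Pdgfra, the defining OPC receptor, stood at 72.0 to 104 rescaled TPM in all 6 OPC libraries. Of 9 OPC markers tested, 1 was lower in null OPCs, where 12% of all genes passed in either direction. It was Cspg4 (the NG2 proteoglycan), at -1.38 on the log2 scale (limma adjusted p = 0.0310), and its difference was 0.54 on the deposited TPM (adjusted p = 0.351). The summed level of 8 microglial markers was at most 4.60 and that of 8 mesenchymal markers at most 1.18 in any library. By contrast, 10 neuron markers summed to 67.4 to 158 and 10 astrocyte markers to 64.1 to 596 over the libraries. Protein-coding Thap1 transcripts averaged 4.04 ± 0.589 rescaled TPM in control OPCs and 0.616 ± 0.149 in null OPCs, 2.40 ± 0.446 and 0.554 ± 0.186 at DIV2, and 2.98 ± 0.716 and 0.472 ± 0.281 at DIV4 (mean ± SD, n = 3). Thap1 summed over all its transcripts was 6.04 and 10.6 in control and null OPCs, so the check of the labels rests on the coding transcripts. Sequencing depth is unknown, and TPM permits no counting error. In bulk libraries, fewer cells of a type and less RNA per cell cannot be told apart.

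Levels spanned a wide range. Over the 18 libraries the mean was 160 rescaled TPM for Olig1, 78.9 for Sox10, 53.4 for Olig2, 30.7 for Zeb2 and 29.6 for Sox8. The other members were lower, at 9.07 for Zfp488, 5.56 for Myrf, 4.53 for Nkx2-2, 2.70 for Tcf7l2 and 2.52 for Nkx6-2. Zeb2 and Sox8 are neighbours in this order whose ranges overlap throughout (17.5 to 57.5 against 3.55 to 75.0), as do those of the 4 lowest genes. In the control clones the order of onset, by the share of a gene's highest group mean reached in OPCs, began with Olig1, Nkx2-2 and Olig2, whose highest mean was in OPCs. Sox10 followed with 92.4% of its highest mean in OPCs, then Zeb2 (68.1%), Tcf7l2 (65.0%), Sox8 (49.1%), Zfp488 (43.9%), Nkx6-2 (23.0%) and Myrf (18.7%), the last alone reaching its highest mean at DIV4. This order rests in part on single OPC libraries: without D3 Nkx2-2 had its highest mean at DIV4 and reached 80.0% of it in OPCs, and Sox8 reached 23.3%. Without E8 Sox10 was highest in OPCs and Nkx6-2 reached 13.7%, and without D7 Sox8 reached 70.1%. The highest mean of Myrf at DIV4 rests on D7. Control Myrf at DIV4 was 14.9, 9.21 and 4.00 in D7, D3 and E8, against 7.04 to 9.19 at DIV2. In the null clones Tcf7l2 had its highest mean in OPCs and Nkx2-2 at DIV2, and Myrf had 75.7% of its highest mean in OPCs, or 37.9% without 3F.

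**Figure D1:**
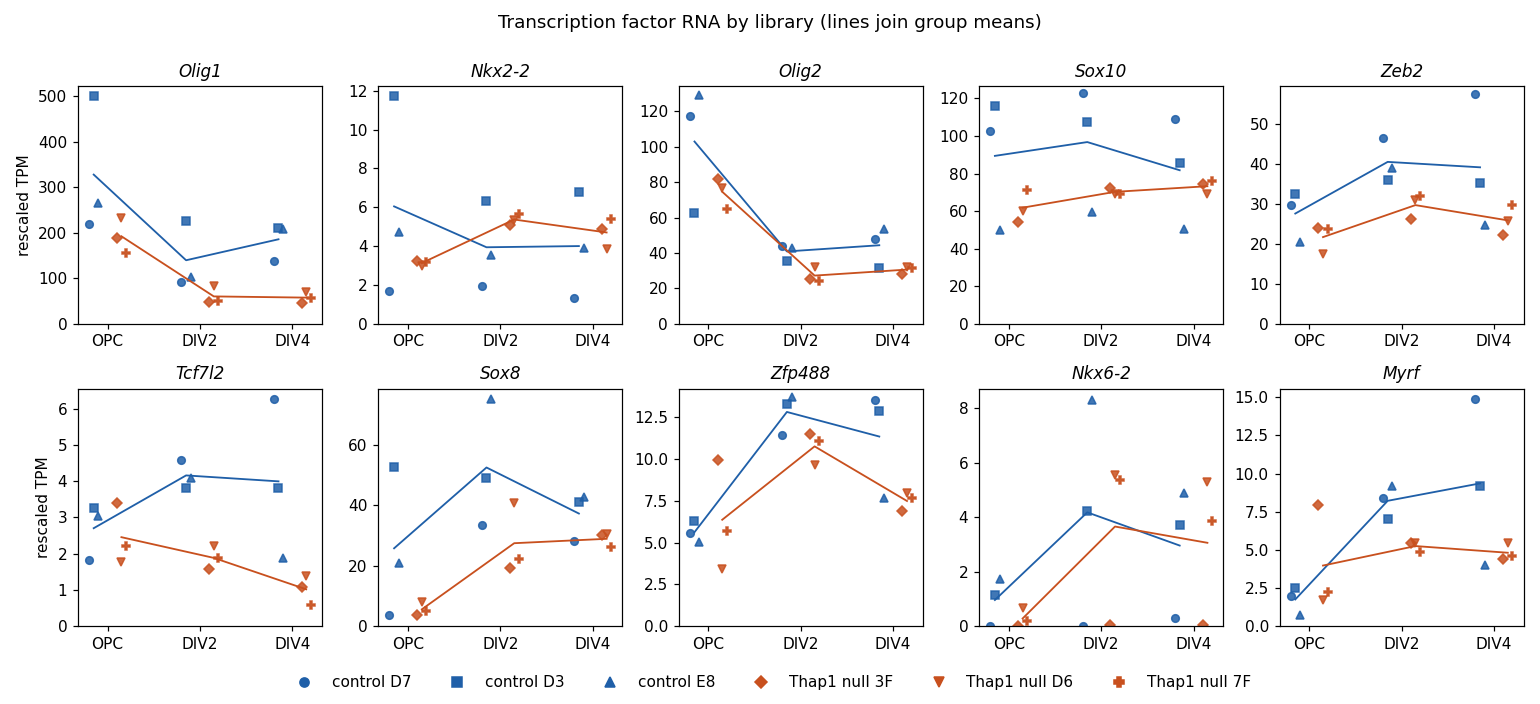
Rescaled TPM (linear axes starting at 0, a different scale in each panel) of the 10 genes at the OPC, DIV2 and DIV4 stages, in order of onset in the control clones. Each point is 1 library, marked by clone, blue for control and orange for Thap1 null, and lines join the means of 3 libraries; Olig1 and Olig2 are highest in OPCs, Myrf and Zfp488 rise by DIV2 in the control clones, and Nkx6-2 lies near 0 in D7 and 3F.

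From OPC to DIV2 the progenitor factors Olig1 and Olig2 fell in both genotypes on the rescaled values, while Zfp488 rose in both; Myrf passed the test in the control clones and Sox8 in the null clones. All tests were made with limma on log2(rescaled TPM + 1) over 12462 genes, with Benjamini-Hochberg adjusted p under 0.05 as the threshold, and 4 of the 10 members passed in each genotype, 2 upward and 2 downward. Of all genes tested, 35% passed in the control clones (17.7% upward, 17.3% downward) and 27.9% in the null clones (14.4% and 13.6%), so these counts lie near the background. With the clone as a block, which uses that each clone was sampled at every stage, 6 members passed in each genotype, where 38.9% of all genes passed in control and 31.4% in null clones. The median log2 change of the members was 0.53 in control and 0.49 in null clones, beside 0.02 and -0.02 over all genes. Without overlap between OPC and DIV2, 4 members were higher and 1 lower in control clones (21.7% and 20.4% of all genes), and 3 were higher and 2 lower in null clones (25.3% and 25.6%).

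Olig1 stood at 219, 500.5 and 265 rescaled TPM in control D7, D3 and E8 as OPCs, at 91.2, 225 and 102 at DIV2 and at 137, 211 and 209 at DIV4. In null 3F, D6 and 7F it stood at 188, 233 and 156, then 47.9, 82.0 and 49.7, then 45.3, 70.0 and 56.3. Every clone was lower at DIV2 than as OPCs, although D3 at DIV2 was above D7 as OPCs, so the control groups overlap, and the null groups do not. The log2 change to DIV2 was -1.26 (SE 0.36, limma adjusted p = 0.0158) in control clones and -1.69 (SE 0.36, adjusted p = 0.00339) in null clones. The control call of Olig1 was lost without D3 at the OPC stage (-0.91, adjusted p = 0.0612), without D7 or E8 at DIV2 (0.0746 and 0.0654), under quantile normalization (0.152) and with only the 2 groups compared in the fit (0.121). On the deposited TPM the control change of Olig1 had the opposite sign, 1.48, beside a median of 1.96 over all genes, and the null change was -1.26 (adjusted p = 0.132).

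Olig2 followed Olig1 downward. It stood at 117, 62.5 and 129 rescaled TPM in control OPCs, at 44.2, 35.6 and 42.6 at DIV2 and at 47.8, 31.6 and 53.5 at DIV4. In the null clones it stood at 81.8, 77.0 and 65.0, then 24.9, 32.3 and 24.2, then 28.2, 31.9 and 31.5. All 6 OPC libraries lay above all 6 DIV2 libraries. The log2 change to DIV2 was -1.25 in control (SE 0.24, limma adjusted p = 0.00146) and -1.43 in null clones (SE 0.24, adjusted p = 0.000741). On the deposited TPM the control change of Olig2 was 1.44, again opposite in sign and under the all-gene median of 1.96, and the null change stayed negative at -1.01 (adjusted p = 0.0511).

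The SOX pair behaved unlike each other. Sox10, the factor that directs many myelin genes with MYRF, stood at 102, 116 and 49.9 rescaled TPM in control OPCs, 123, 108 and 59.7 at DIV2 and 109, 85.5 and 50.5 at DIV4. In null clones it stayed between 54.0 and 76.1 in all 9 libraries, and E8 was the lowest control clone at each stage. Its changes to DIV2 were 0.14 (SE 0.33) in control and 0.19 (SE 0.33) in null clones, with adjusted p of 0.780 and 0.711. Sox8, its close relative, stood at 3.74, 52.8 and 20.8 in control OPCs and at 33.5, 49.0 and 75.0 at DIV2. In null clones it stood at 3.55, 8.0 and 5.18, then 19.4, 40.6 and 22.4, with no overlap between the stages. The log2 change of Sox8 was 2.10 in null clones (SE 0.62, limma adjusted p = 0.0206) and 1.52 in control clones (SE 0.62, adjusted p = 0.0706). Without control D3 at the OPC stage, the control change of Sox8 was 2.32 (adjusted p = 0.00332), and with the clone as a block it passed too (adjusted p = 0.0276). The fit without D3 was the only 1 of 6 fits without a library in which the control change passed. In these fits it ran from 0.57 to 2.32, with limma adjusted p up to 0.338. The null call of Sox8 was lost without 3F or 7F as OPCs (0.0766 and 0.0535), without D6 at DIV2 (0.0815) or with no filter on low genes (0.0542). At DIV4 Sox8 lay between 28.1 and 42.6 in control and between 26.3 and 30.4 in null clones.

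Myrf rose from OPC to DIV2 in the control clones. It stood at 1.99, 2.52 and 0.758 rescaled TPM in control OPCs, 8.40, 7.04 and 9.19 at DIV2 and 14.9, 9.21 and 4.00 at DIV4. The null values were 7.94, 1.74 and 2.24, then 5.45, 5.43 and 4.86, then 4.39, 5.42 and 4.62. The control stages OPC and DIV2 do not overlap, whereas in the null clones 3F was already at 7.94 as OPCs. The log2 change to DIV2 was 1.79 in control clones (SE 0.42, limma adjusted p = 0.00511) and 0.54 in null clones (SE 0.42, adjusted p = 0.381). The difference between these changes was -1.26 (SE 0.60) with an adjusted p of 0.370, so the step was not shown to differ between the genotypes.

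Zfp488, a zinc-finger factor that promotes differentiation with OLIG2, rose in both genotypes. It stood at 5.57, 6.27 and 5.05 rescaled TPM in control OPCs and at 11.5, 13.3 and 13.7 at DIV2. The null values were 9.95, 3.45 and 5.72, then 11.5, 9.66 and 11.1. The stages do not overlap in control clones, and in null clones only 3F as OPCs reached the DIV2 range. The log2 changes were 1.06 in control (SE 0.26, limma adjusted p = 0.00570) and 0.77 in null clones (SE 0.26, adjusted p = 0.0365). The null call of Zfp488 was lost without D6 or 7F as OPCs (adjusted p of 0.174 and 0.0878), without any 1 of the DIV2 libraries (0.0549 to 0.106), with no filter (0.0807), with only the 2 groups compared (0.120) and on the deposited TPM (0.0582). Of the 31-base words of Zfp488 transcripts, 18.2% also occur in other genes, so its level is uncertain; for each other member the share was under 1%.

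Zeb2, a repressor of signals that hold progenitors back, stood at 29.7, 32.4 and 20.5 rescaled TPM in control OPCs, 46.5, 35.9 and 39.1 at DIV2 and 57.5, 35.1 and 24.8 at DIV4. In null clones it stood at 23.8, 17.5 and 23.6, then 26.1, 30.9 and 32.0, then 22.1, 25.7 and 29.7. The OPC and DIV2 groups do not overlap in either genotype. The changes of Zeb2 to DIV2 were 0.56 (SE 0.25, adjusted p = 0.0998) in control and 0.44 (SE 0.25, adjusted p = 0.212) in null clones, and with the clone as a block the control change passed (limma adjusted p = 0.0467).

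**Figure D2:**
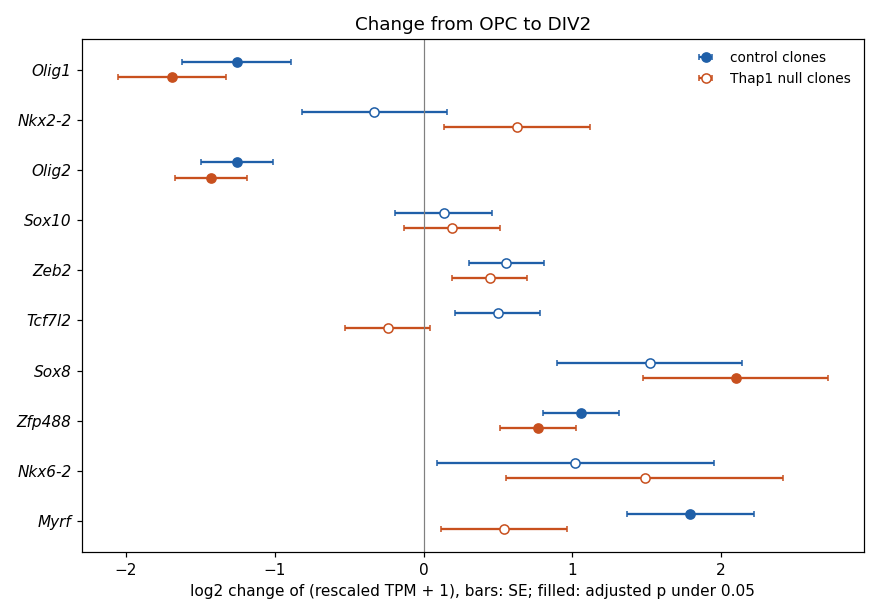
Log2 change of (rescaled TPM + 1) from OPC to DIV2 for the 10 genes, with bars of 1 SE from the limma fit, blue for the control and orange for the Thap1 null clones. Filled points had an adjusted p under 0.05; Olig1 (-1.26 and -1.69) and Olig2 (-1.25 and -1.43) lie left of 0 in both genotypes and Zfp488 (1.06 and 0.77) lies right of 0 in both.

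The NKX homeodomain genes varied widely between clones, Nkx6-2 in both genotypes and Nkx2-2 in the control clones. Nkx6-2, which is switched on in maturing oligodendrocytes, stood at 0.00956, 0.0187 and 0.284 rescaled TPM in control D7 at OPC, DIV2 and DIV4, and at 0, 0.0336 and 0.0289 in null 3F. In the other 4 clones it was 0.188 to 1.74 in OPCs, 4.21 to 8.31 at DIV2 and 3.73 to 5.31 at DIV4. Each genotype thus held 1 clone with almost no Nkx6-2 RNA at any stage, and the other clones had more at DIV2 than as OPCs. Because of these clones the SE of the Nkx6-2 changes was 0.93, and the changes to DIV2 of 1.02 in control and 1.49 in null clones had adjusted p of 0.423 and 0.260. With the clone as a block, the null change passed (limma adjusted p = 0.0264). The values sum a coding transcript and 1 annotated for nonsense-mediated decay. The latter held 65.2% to 67.8% of Nkx6-2 TPM in the control group means and 14.2% to 37.0% in the null ones. These shares count D7 and 3F fully although their totals are near 0, and 3F as OPCs, at 0, has none. Nkx6-2 lies at 139579376 to 139582797 of chromosome 7, and 4 genes from the wider region were looked up. The closest on either side were Stk32c, which ends at 139213307, and Kndc1, which starts at 139894696. At DIV2 in D7 and 3F, Dpysl4 stood at 88.5 and 41.9 and Stk32c at 5.63 and 2.99. Kndc1 stood at 14.6 and 3.29 and Tubgcp2 at 5.47 and 4.92. Genes this far away do not show the state of the Nkx6-2 locus itself, which was not tested. As OPCs, Stk32c and Kndc1 were listed at 0 in D7 and stood at 0.163 and 0.0400 in 3F, and they were at most 1.24 and 0.250 in any OPC library.

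Nkx2-2, which cooperates with OLIG2 in the progenitor and early oligodendrocyte, stood at 1.68, 11.7 and 4.72 rescaled TPM in control OPCs, 1.95, 6.30 and 3.55 at DIV2 and 1.29, 6.78 and 3.92 at DIV4. In null clones it stood at 3.23, 2.95 and 3.19, then 5.09, 5.34 and 5.67, then 4.90, 3.83 and 5.37. D7 was the lowest and D3 the highest control clone at every stage. These values include noncoding transcripts of Nkx2-2. A noncoding transcript of 378 bases held 26.3% to 38.8% of Nkx2-2 TPM in each group mean. In single control OPC libraries its share ran from 0% to 64.7%. A second noncoding transcript, of 340 bases, held 0.0012% and 0.0065% in the control and null OPC means and 16.1% and 14.5% at DIV2. From OPC to DIV2 in null clones, its mean went from 0.0002 to 0.795 rescaled TPM and that of the 378-base transcript from 1.15 to 1.66. The 2 coding transcripts went from 1.16 to 2.18 and from 0.813 to 0.738, so the null rise of Nkx2-2 is in part noncoding. The null clones kept closer together than the control clones, and their OPC and DIV2 groups do not overlap. The change to DIV2 of Nkx2-2 was -0.33 (SE 0.49) in control and 0.63 (SE 0.49) in null clones, with adjusted p of 0.640 and 0.377. With the clone as a block, the null change passed (limma adjusted p = 0.0140).

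**Figure D3:**
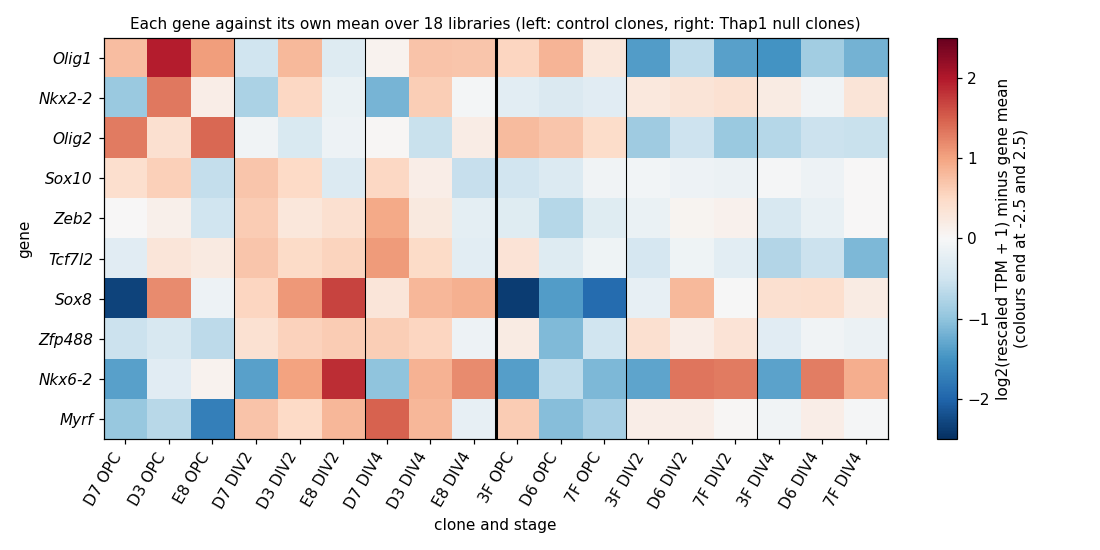
Log2(rescaled TPM + 1) of each gene minus its own mean over the 18 libraries, with red above and blue below the mean and colours ending at -2.5 and 2.5. Columns are libraries by genotype, stage and clone, and thin lines part the stages; the dark blue Sox8 cells are control D7 and the null clones as OPCs, and Nkx6-2 is blue in D7 and 3F at all 3 stages.

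From DIV2 to DIV4 no member passed in either genotype by limma, and none had an unadjusted p under 0.05. By adjusted p the background was 0.233% of genes in control clones and 2.1% in null clones, and by unadjusted p it was 10.3% and 16.6%. Tcf7l2 and Zfp488 were lower in all 3 null clones at DIV4 than in any null clone at DIV2, with changes of -0.53 (SE 0.29, adjusted p = 0.377) and -0.47 (SE 0.26, adjusted p = 0.382). No overlap downward was seen in 20% of all genes in that comparison. Olig1 was higher at DIV4 than at DIV2 in control D7 and E8 and lower in D3, for a change of 0.50 (SE 0.36, adjusted p = 0.717).

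Between genotypes, Olig1 and Tcf7l2 were lower in the Thap1 null clones at DIV4 on the rescaled values, and no member passed the test as OPCs or at DIV2. Of all genes, 12% passed in OPCs, 2.8% at DIV2 and 4.82% at DIV4, of which 2.13% were lower in null clones. At an unadjusted p under 0.05 the count of members was 1 in OPCs (Sox8), 3 at DIV2 (Olig1, Olig2 and Tcf7l2) and 2 at DIV4 (Olig1 and Tcf7l2), where 28.4%, 14.5% and 20.5% of all genes had such a p. By unadjusted p, with the background counted in either direction, the counts in OPCs and at DIV4 are thus no higher than the background. By adjusted p, 2 of the 10 members passed at DIV4, both lower, where 2.13% of all genes passed as lower. The members' median log2 difference was -0.42, -0.49 and -0.50 at OPC, DIV2 and DIV4, beside 0.04, 0.00 and -0.01 over all genes, and 8, 9 and 9 of the 10 lay below 0. On the deposited TPM the medians were 1.51, -0.67 and -0.66, beside 1.5, -0.15 and -0.17 over all genes.

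Olig1 was lower in each null clone than in each control clone at DIV2 and at DIV4, and the genotypes overlapped in OPCs. The null mean was 57.2 ± 12.4 rescaled TPM at DIV4 against 186 ± 42.0 in control (SD, n = 3), 3.25-fold lower. The log2 difference was -0.69, -1.13 and -1.68 at the 3 stages (SE 0.36 each), with limma adjusted p of 0.228, 0.133 and 0.0184. Leaving out control E8, null 3F or null 7F at DIV4 ended the call (adjusted p of 0.0581, 0.0928 and 0.0692), as did the deposited TPM (-1.84, 0.101). As a share of the 10 genes' summed TPM, which the rescaling cannot move, Olig1 held 45.3% to 63.4% in control and 46.6% to 57.4% in null OPCs. At DIV2 the shares overlapped, at 25.0% to 46.1% in control and 22.0% to 28.9% in null clones. At DIV4 Olig1 held 33.0% to 51.9% in control and 20.8% to 27.9% in null clones, with no overlap.

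Tcf7l2, the Wnt pathway effector that early differentiating oligodendrocytes switch on, stood at 1.82, 3.26 and 3.03 rescaled TPM in control OPCs, 4.59, 3.80 and 4.09 at DIV2 and 6.27, 3.82 and 1.89 at DIV4. In null 3F, D6 and 7F the values were 3.39, 1.77 and 2.21, then 1.57, 2.20 and 1.88, then 1.08, 1.38 and 0.595. The genotypes overlapped as OPCs and did not at DIV2 or DIV4. The null mean at DIV4 was 1.02 ± 0.397 against 4.00 ± 2.20 in control (SD, n = 3), 3.92-fold lower, and the log2 difference was -1.23 (SE 0.29, limma adjusted p = 0.0253). At DIV2 the log2 difference was -0.84 (SE 0.29, adjusted p = 0.157). The Tcf7l2 call at DIV4 was lost without control D7, the clone high in myelin genes at DIV4 (-0.91, adjusted p = 0.0684), without null 3F or 7F (0.0825 and 0.121), with no filter on low genes (0.0509) and with only the 2 groups compared in the fit (0.180). Between 86.4% and 93.1% of Tcf7l2 TPM in each group mean came from the 16 transcripts that start in the upstream window, at 55741820 to 55742845 of chromosome 19.

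Olig2, Zeb2 and Myrf also did not overlap between genotypes at DIV2, with differences of -0.58, -0.43 and -0.55 and adjusted p of 0.282, 0.461 and 0.609. With Olig1 and Tcf7l2 this made 5 of 10 members lower in every null clone at DIV2, where 15.8% of all genes showed this, and 2 of 10 at DIV4, where 13.3% did. At DIV4 their differences were -0.49, -0.51 and -0.69, and for Zfp488 -0.51, with adjusted p of 0.275, 0.273, 0.401 and 0.284. Sox10 and Sox8 differed by -0.09 and -0.34 at DIV4, Nkx6-2 by -0.06, and Nkx2-2 alone lay above 0, at 0.35. In OPCs the widest difference was that of Sox8, -1.49 (SE 0.62, adjusted p = 0.132). Control D7, at 3.74, lay within the null range of 3.55 to 8.0, and without D7 the Sox8 difference in OPCs was -2.44 (adjusted p = 0.00280). That was the only 1 of 6 fits without a library in which Sox8 passed. The differences of Sox8 in these fits ran from -2.44 to -0.68, with limma adjusted p up to 0.394. Without control D3, low in cell cycle genes, the OPC difference of Olig2 was -0.72 (adjusted p = 0.0244) against -0.40 with it (adjusted p = 0.300). For Olig2 too this was the only 1 of 6 such fits that passed. Its differences in them ran from -0.72 to -0.20, with limma adjusted p up to 0.668.

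**Figure D4:**
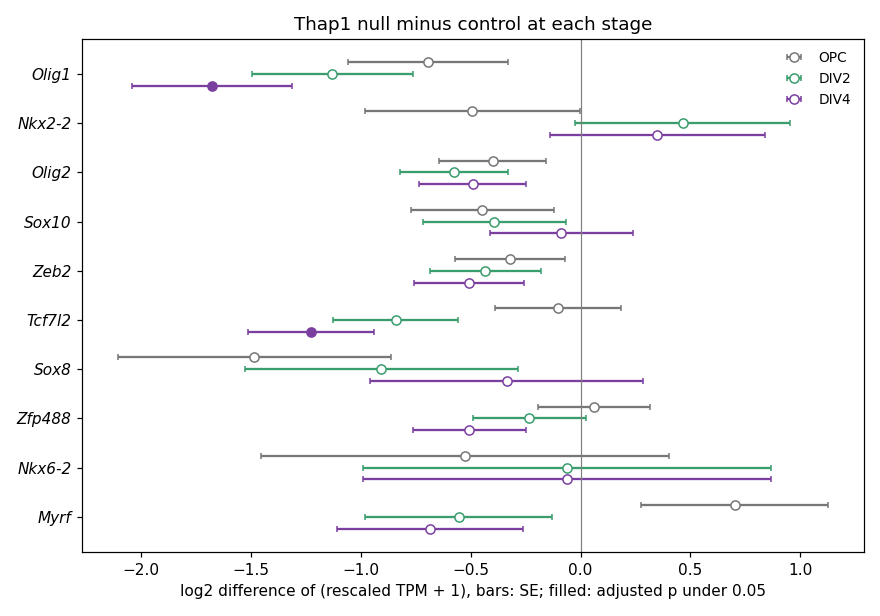
Log2 difference of (rescaled TPM + 1), Thap1 null minus control, at OPC (grey), DIV2 (green) and DIV4 (purple) for the 10 genes, with bars of 1 SE from the limma fit. Filled points had an adjusted p under 0.05, which held for Olig1 (-1.68) and Tcf7l2 (-1.23) at DIV4; most other points lie left of 0.

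No member passed the test of a different change between genotypes by limma, with a background of 0.465% of genes for OPC to DIV2, 2.78% for OPC to DIV4 and 0.0241% for DIV2 to DIV4. At an unadjusted p under 0.05, 2 members passed for OPC to DIV4, where 19.7% of all genes did, and 0 for OPC to DIV2 (13.8% of genes) and DIV2 to DIV4 (5.45%). These were Myrf, with -1.39 (SE 0.60, adjusted p = 0.216), and Tcf7l2, with -1.12 (SE 0.40, adjusted p = 0.140). For Olig1 the genotype difference at DIV4 was not shown to differ from that in OPCs (interaction -0.98, SE 0.52, adjusted p = 0.310).

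The genes these factors act on and with were counted from lists, on the rescaled values. From OPC to DIV2, 17.7% of all genes rose and 17.3% fell in control clones, and 14.4% and 13.6% in null clones. Among 20 myelin genes, 17 were tested, of which 15 rose and 0 fell from OPC to DIV2 in control and 13 rose and 0 fell in null clones, with median changes of 2.98 and 2.00; on the deposited TPM 17 and 13 of 18 tested rose, where 83.1% and 14.3% of all genes did. Mag, a myelin-associated adhesion protein, rose by 6.62 and 5.46, and Mbp, myelin basic protein, by 6.17 and 5.38 (log2, control and null). In null OPCs 1 of the 17 was lower than in control and 0 were higher, where 12% of all genes passed in either direction. It was Trf, transferrin (-1.88). At DIV2 2 were lower, Trf (-4.07) and Mobp (-3.56), and 0 higher, where 2.8% of all genes passed in either direction. At DIV4 3 of the 17 were lower in null clones and 0 higher, where 2.13% of all genes were lower. Their median difference was -1.03 against -0.01 over all genes. Mobp, a myelin structural gene, differed by -5.51 (adjusted p = 0.000949) and Trf, transferrin, by -3.78 (adjusted p = 0.00113). Summed myelin RNA moved with clone: at DIV4 it was 14191, 3322 and 3042 in D7, D3 and E8, and 2792 to 3739 in null clones. Among the control clones at DIV4, Tcf7l2, Myrf, Zeb2, Sox10 and Zfp488 were also highest in D7. Olig1, Sox8, Nkx2-2 and Nkx6-2 were lowest in D7, and Olig2 in D7 lay between D3 and E8. The summed level of 10 astrocyte markers at DIV4 was 96.7, 388 and 596 in D7, D3 and E8 and 425 to 500 in null clones. The part of the myelin or the astrocyte spread in the Tcf7l2 and Olig1 differences was not tested.

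Of 12 cofactors and chromatin partners, 6 fell and 1 rose from OPC to DIV2 in control clones, where 17.3% and 17.7% of all genes did. On the deposited TPM all 12 rose, where 83.1% of all genes did, with a median of 1.96 equal to that of all genes. The cofactor that rose was Smad7, an inhibitor of TGF-beta and BMP signalling, named after its values were seen (2.37, limma adjusted p = 0.00314). In null clones 1 fell and 0 rose, where 13.6% and 14.4% of all genes did. On the deposited TPM 0 fell and 1 rose in null clones, where 14.3% of all genes rose. The helix-loop-helix partners of the OLIG proteins Tcf4 and Tcf3 changed by -1.25 and -1.05 in control clones, and by 1.38 and 1.42 on the deposited TPM. The remodeler Chd7 changed by -0.61 in control clones (1.72 on the deposited TPM) and by -1.06 in null clones (-0.71 on the deposited TPM, limma adjusted p = 0.189). Tcf3 differed by -0.75 in null OPCs (1.16 on the deposited TPM), and its change to DIV4 differed between genotypes by 0.68 (-1.39 on the deposited TPM). Of 14 other lineage factors tested, 5 rose and 5 fell to DIV2 in control clones (17.7% and 17.3% of all genes). In null clones 5 rose and 4 fell (14.4% and 13.6% of all genes). On the deposited TPM 8 of 15 rose and 0 fell in control clones, where 83.1% of all genes rose. Klf9, a thyroid hormone target, rose by 3.84 and 4.06, Zfp536 rose by 2.91 and 2.39, and the growth factor target Etv5 fell by 2.90 and 2.45; the deposited TPM gave the same signs, but the control change of Etv5 was then -0.60 and did not pass (limma adjusted p = 0.428). Sox2, a progenitor factor, differed by -0.70 in null OPCs (1.39 on the deposited TPM), and its relative Sox3, named after its values were seen, by -1.05 (0.58 on the deposited TPM). These were the 2 of 14 that passed in OPCs, where 12% of all genes passed. Of the list, 0 of 14 passed between genotypes at DIV2 or DIV4, where 2.8% and 4.82% of all genes did. On the deposited TPM 0 and 1 of 15 passed, where 203 and 358 of 12894 genes did. Of 4 factors tested that restrain differentiation, 1 fell to DIV2 in each genotype, where 17.3% and 13.6% of all genes fell. It was Hes5, which fell by 2.17 and 2.80. On the deposited TPM its control change was 0.06 and did not pass (limma adjusted p = 0.953).

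By root mean square difference of centred log2 values over the 18 libraries, among genes with a mean of at least 5 rescaled TPM, the gene nearest to Olig1 was Cd200 (0.46), that nearest to Olig2 was Fip1l1 (0.24) and that nearest to Sox8 was Abhd4 (0.45). Tbc1d14 was nearest to Myrf (0.35), Anks1b to Tcf7l2 (0.28), Dis3l2 to Zeb2 (0.18), Zfc3h1 to Zfp488 (0.24), Rnf214 to Sox10 (0.28) and Lrch3 to Nkx2-2 (0.37). Nkx6-2 had no near gene, with Uckl1 the closest at 0.81. Among the members, Sox10 and Zeb2 were the nearest pair (0.31), followed by Zfp488 and Zeb2 (0.32) and Myrf and Zfp488 (0.40). Olig1 and Olig2 were each other's nearest member at 0.67, although they are neighbours on the chromosome. These are distances across all stages and clones and carry no test.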

How the data were processed

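RNA was sequenced from 18 libraries made with a stranded total RNA kit after removal of ribosomal RNA, per the labels' protocols. The deposited table gives TPM for 93666 transcripts in each library, and STAR, Picard and mm10 are named without versions or roles in the submitters' processing notes. The quantifier, its annotation and the strand setting are not given in the sources used here. TPM was summed by symbol and divided by median-of-ratios factors from 11432 genes present in all libraries with a mean of at least 1 TPM, which assumes that most genes do not change. Genes with a mean of at least 1 rescaled TPM (12462, all 10 members among them) entered the test, run in R 4.3.3 with the limma package (3.58.1) and 1 mean per group, all 18 libraries sharing the spread, eBayes with a trend, and a pseudocount of 1, so changes of low genes are understated. The fit was tested on simulated data for null against control at DIV4. It called 47 of 100 genes given a log2 change of 1 and 79 of 100 given a change of 2. Of 12262 genes given no change it called 9. True changes of about 1 were thus often missed. Coordinates are from GENCODE M21. Each clone gave 1 library per stage, so libraries are paired across stages by clone per the labels. Same-clone deviations from the group means correlated at 0.12 on average (-0.0087 to 0.42), against -0.02 for other clones. The members and gene lists, and the rule for naming genes (the members, Thap1, up to 4 of the largest called genes of each list and comparison with a mean of at least 5 TPM, and each member's nearest profiles), were chosen with earlier results of these data known.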

Additional observations from a re-analysis of the deposited data

Results flagged for a closer look

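On the rescaled values, which sum its coding and noncoding transcripts, Nkx2-2 moved in opposite directions from OPC to DIV4 in the 2 genotypes. Each control clone fell, by 0.22, 0.71 and 0.22 on the log2 scale in D7, D3 and E8, and each null clone rose, by 0.48, 0.29 and 0.61 in 3F, D6 and 7F. This split was picked out by searching all members over each pair of stages. The share of all genes with such a split was not counted. The difference, null minus control, was 0.84 (SE 0.69), and the limma interaction did not pass the test (adjusted p = 0.532). On the deposited TPM this direction turned: the difference was -0.71 (adjusted p = 0.424), beside a median of -1.68 over all genes, and the control change of Nkx2-2 was 1.55 to DIV2 and 0.02 from there to DIV4.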

How the results depend on the processing

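Directions in comparisons with OPCs depend on the rescaling, because 3 noncoding features fill the control OPC libraries. On the deposited TPM the median gene differed by 1.5 between null and control OPCs and changed by 1.96 from control OPC to DIV2. On that scale Olig1 (1.43), Olig2 (1.69), Sox10 (1.61), Tcf7l2 (1.09) and Zeb2 (1.62) were higher in null OPCs. There 7 members passed, as did 10446 of the 12894 genes tested on that scale. From control OPC to DIV2, Olig1 (1.48), Olig2 (1.44) and Nkx2-2 (1.55) rose and 9 members passed, as did 10785 of 12894 genes. From null OPC to DIV2 1 member passed, as did 2297 of 12894 genes. The interactions of Sox10 turned to -2.19 (OPC to DIV2) and -1.86 (OPC to DIV4). In each of these interactions 7 members passed, where 9366 and 9481 of 12894 genes did, so the members' counts lie near the background. The interactions of Nkx2-2 (-0.55 and -0.71), Sox8 (-1.39 and -0.80) and Nkx6-2 (-0.22 and -0.35) turned in sign too, without passing on either scale. The genes that passed on this scale (higher and lower, against the split after rescaling) were 10446 (10407 and 39, against 752 and 741) for null against control OPCs, 203 (87 and 116, against 206 and 143) at DIV2 and 358 (115 and 243, against 336 and 265) at DIV4. They were 10785 (10713 and 72, against 2207 and 2160) from control OPC to DIV2, 46 to DIV4, 2297 (1845 and 452, against 1794 and 1689) from null OPC to DIV2 and 67 (27 and 40, against 132 and 130) to DIV4. The interactions gave 9366 (35 and 9331, against 33 and 25) to DIV2 and 9481 (38 and 9443, against 181 and 166) from OPC to DIV4. Quantile normalization gave 70 genes (22 and 48, against 13 and 16) from control DIV2 to DIV4, and moved the split to 630 and 981 in OPCs and to 334 and 179 for the OPC to DIV4 interaction. A fit on protein-coding transcripts alone, added once the data had been seen, gave 19 and 5 for control DIV2 to DIV4 and 0 genes for the DIV2 to DIV4 interaction.

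With only the groups compared, 242 genes passed in OPCs, 163 at DIV4, 2079 from control OPC to DIV2, 1996 from null DIV2 to DIV4 and 72 for the OPC to DIV4 interaction. Members passing in that fit were 1 at DIV2 (Tcf7l2), 1 at DIV4 (Olig1), 1 from null DIV2 to DIV4 (Zfp488), 3 from control OPC to DIV2 (Myrf, Olig2, Zfp488) and 4 from null OPC to DIV2 (Nkx2-2, with an adjusted p of 0.00523, Olig1, Olig2, Sox8). With no filter, 1 member passed at DIV4 and 2 from null OPC to DIV2, and 98 and 13 genes passed for the interactions to DIV2 and from DIV2 to DIV4. A mean of at least 5 TPM, which removes Tcf7l2, Nkx2-2 and Nkx6-2, left 1 member at DIV4 and gave 210 genes at DIV2, 22 for the interaction to DIV2 and 1 for that from DIV2 to DIV4. A pseudocount of 0.1 gave 7 genes for the last. On the deposited TPM 1 member (Tcf7l2) passed at DIV4.

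With the clone as a replicate block, 48 genes passed from control DIV2 to DIV4 (29 without) and 506 from null DIV2 to DIV4 (262 without). It changed no call of a member other than the 4 named in the report, and no other total by over 1.5 times, while the genes with a positive interaction went from 33 to 52 (OPC to DIV2) and from 181 to 281 (OPC to DIV4).

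Leaving out 1 library moved the members passing to 0 to 1 in OPCs, 0 to 2 at DIV4 and 2 to 3 from null OPC to DIV2. Genes called ranged over 652 to 2293 in OPCs (highest without control D3), 139 to 339 at DIV2, 211 to 774 at DIV4 (211 without null 3F or 7F), 8 to 676 from control DIV2 to DIV4 (highest without D7 at DIV4) and 46 to 128 from null DIV2 to DIV4. For the interactions they ranged over 21 to 406 (highest without control D3 OPC), 78 to 1068 (highest without it too) and 3 to 37 (highest without control D3 at DIV4). In every such fit 0 members passed at DIV2, from DIV2 to DIV4 or in an interaction. The cause of each change was not tested, and unknown depth limits the low genes Tcf7l2, Nkx2-2, Nkx6-2 and Myrf.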
